A study of Rattus norvegicus with 4 samples.

Results

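Rab GTPases are the small GTP-binding proteins that give each membrane compartment of the cell its identity. They were taken here as the genes whose name on the array is Rab followed by a number and at most a letter and a digit, with effectors and regulators left out. The array carried 72 such probes for 56 Rab genes, and 45 of these genes had a probe that was well above background in at least 1 group on both of its arrays, out of 12858 genes that met this condition. The samples were spleen cells of male WKAH rats, 8-12 weeks old, that had been given liposomes (vesicles of lipid, with 2 arrays) or saline (2 arrays) 24 h before the spleens were taken. In both groups, magnetic beads had removed cells that carry MHC class II, and beads against the myeloid integrin CD11b/c had then kept the cells that carry it. The study set out to see how liposomes alter gene expression in this fraction, which its title calls splenic macrophages. What the liposomes were made of, how much was given and by what route are not stated in the labels used here. Whether each array had its own animal is not stated in the labels, and p-values cover no more than the spread among these 4 samples, possibly a technical one.

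A Rab protein cycles between a GDP-bound form, held soluble in the cytosol by GDP dissociation inhibitor, and a GTP-bound form on a membrane, where it recruits motors, tethers and lipid kinases. Exchange factors (GEFs) switch it on and GTPase-activating proteins (GAPs) switch it off. In phagocytes, Rab5 marks the new endosome or phagosome, Rab7 replaces it as the compartment matures and meets the lysosome, Rab4 and Rab11 return membrane to the surface, Rab1 and Rab2 serve the path between endoplasmic reticulum and Golgi, and Rab3, Rab8 and Rab27 serve secretion.

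At the threshold used here (limma, Benjamini-Hochberg adjusted p under 0.05 over 12858 genes), 4 of the 45 Rab genes changed: Rab7b and Rab1a rose, and Rab27a and Rab30 fell. Over all genes tested 8.89% passed, so a count of 4 in 45 lies near the background and is no result about Rab genes as a family. With no filter on dim probes all 4 calls were lost (limma adjusted p = 0.181 for Rab7b, 0.209 for Rab1a, 0.234 for Rab27a and 0.269 for Rab30, over 21971 genes). In that setting 0 of all genes passed, so the loss was not particular to these 4. The 2 that rose stand beside 4.83% of all genes that rose, and the 2 that fell beside 4.06% that fell (621 and 522 genes). Under median scaling 6 Rab genes were called higher and 1 lower, beside 852 and 442 of all genes. The even split of the Rab calls thus depended on the scaling. With the number in the sample titles as a block, 10 Rab genes were called, 6 higher and 4 lower, beside 1816 of all genes. That fit added Rab10, Rab13, Rab14, Rab25, Rab33a and Rab34, and the labels do not settle whether the arrays are paired. The promoters of these 4 genes are shown because they are the Rab genes on which the comparison turns. Each sequence holds the 250 bases before the start site, from RefSeq on the rat assembly GRCr8, read 5′ to 3′ on the gene's strand. Capitals mark the GC box, GGGCGG or its reverse complement CCGCCC.
Rab7b, chr13:45673195-45673444, plus strand: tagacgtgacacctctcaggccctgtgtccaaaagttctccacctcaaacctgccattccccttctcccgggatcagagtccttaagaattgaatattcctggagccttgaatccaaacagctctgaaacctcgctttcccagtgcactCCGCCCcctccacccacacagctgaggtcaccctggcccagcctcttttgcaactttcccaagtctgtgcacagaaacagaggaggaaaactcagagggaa
Rab1a, chr14:98623427-98623676, plus strand: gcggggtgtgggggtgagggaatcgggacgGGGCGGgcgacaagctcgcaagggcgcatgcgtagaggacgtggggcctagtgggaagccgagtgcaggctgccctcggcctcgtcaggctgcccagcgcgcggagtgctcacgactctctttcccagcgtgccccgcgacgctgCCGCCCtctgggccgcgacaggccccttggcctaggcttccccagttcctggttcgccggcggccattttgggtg
Rab27a, chr8:82663123-82663372, plus strand: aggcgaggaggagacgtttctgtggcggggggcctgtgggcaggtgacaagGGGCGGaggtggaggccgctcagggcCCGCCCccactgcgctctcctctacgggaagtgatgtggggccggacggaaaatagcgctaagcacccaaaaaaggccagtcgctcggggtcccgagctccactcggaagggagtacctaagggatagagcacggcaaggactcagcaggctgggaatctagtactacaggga
Rab30, chr1:156215887-156216136, plus strand: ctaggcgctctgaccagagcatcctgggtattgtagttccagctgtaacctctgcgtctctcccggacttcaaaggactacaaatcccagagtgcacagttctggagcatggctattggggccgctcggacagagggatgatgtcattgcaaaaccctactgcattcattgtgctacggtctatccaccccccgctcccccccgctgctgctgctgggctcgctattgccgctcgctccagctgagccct

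Among these promoters, that of Rab7b had 1 GC box, 101 bases before the start site. The Rab1a promoter had 2, at 220 and 75 bases, and the Rab27a promoter had 2, at 199 and 173 bases. The Rab30 promoter had none. The bases G and C made up 53.2% of the window of Rab7b, 71.2% of that of Rab1a, 63.6% of that of Rab27a and 58.0% of that of Rab30. A promoter was listed for 37 of the 45 Rab genes, and 30 of the 37 (81.1%) held a GC box on either strand, against 57.3% of the 8502 listed promoters of tested genes and 32.4% of all 27457 listed. The E-box CACGTG was found in 3 of 37 (8.11%; Rab21, Rab31 and Rab5a), against 8.35% of the promoters of tested genes and 5.79% of all. The AP-1 element TGACTCA, also searched on both strands, was found in 3 of 37 (8.11%; Rab34, Rab4b and Rab9a), against 3.07% and 3.98%. None of the 4 promoters shown held either of these letter strings. These matches describe the letters in the windows only.

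Levels below are scaled intensities, the processed spot intensities after each array's 75th percentile was brought to a common value, on a linear scale. An intensity depends on its probe, so levels of single genes are compared between arrays for 1 probe. The sums over marker lists add different probes, so bright probes weigh most in them. Each log2 fold change is the liposome mean minus the saline mean, with limma's standard error (SE), n = 2 arrays per group. Median processed intensities were 188 and 182 on the liposome arrays, against 171 and 175 on the saline arrays, 61.3% to 66.3% of spots were well above background and 0 were saturated. The groups correlated at 0.971 to 0.975 across genes (genes are not independent replicates), against 0.993 within the liposome pair and 0.989 within the saline pair. The fraction was not pure by its transcripts: B-cell markers Cd79a and Cd79b and T-cell markers Cd3d and Cd3g were well above background beside the macrophage marker Cd68, which stood at 58147 and 55749 in liposome samples, against 37620 and 30119 in saline samples (adjusted p = 0.0540, limma). Of the 13 measured macrophage markers, 2 rose and 6 fell by the test. The median log2 fold change of that list was -0.43, so Cd68 does not stand for it. In such bulk samples, fewer cells of a type and less RNA per cell cannot be told apart.

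Rab7b, a Rab of late endosomes and lysosomes that in mouse macrophages is known to limit Toll-like receptor signalling, differed the most of all 45. Its scaled intensity was 1078 and 999 in liposome samples, against 267 and 181 in saline samples. Every liposome value lay above every saline value, by more than the distance between replicates. The arrays of the groups did not overlap, in either direction, for 65.5% of all genes tested. The means were 1039 ± 56.3 with liposomes and 224 ± 60.5 with saline (SD, n = 2 each). The gene rose by 2.24 ± 0.22 on the log2 scale (SE, n = 2 per group), a 4.71-fold higher level, with a limma adjusted p of 0.0194. With 1 array left out, a fit has 1 array in a group and fewer degrees of freedom for every gene. The call held without saline 1 (log2 fold change 2.52) and without saline 2 (1.96), and was lost without liposome 1 (2.18) or liposome 2 (2.29). Its 60-base probe lies at chr13:44629951-44630010 on rn4, the assembly of the array files, plus strand.

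The other late endosomal and lysosomal Rab genes moved less, and none of the 4 passed the test. Rab34, which places lysosomes near the Golgi and takes part in macropinosome formation, had 500 and 396 in liposome samples, against 266 and 270 in saline samples, with a log2 fold change of 0.73 ± 0.15 and an adjusted p of 0.0585 (limma). Its groups did not overlap, though the liposome pair was farther apart than the saline pair. Rab7a, the main GTPase of endosome to lysosome maturation, had 1761 and 1739 with liposomes, against 1439 and 1439 with saline. Its log2 fold change was 0.28 ± 0.09 (adjusted p = 0.126), and its replicates were close in both groups. Rab9a, which returns mannose 6-phosphate receptors from late endosomes to the Golgi, had 1540 and 1492, against 1387 and 1195 with saline (0.24 ± 0.12, adjusted p = 0.250). Rab24, linked to autophagy, was the one member on the lower side, with 8637 and 8024 in liposome samples, against 11013 and 10640 in saline samples, and a log2 fold change of -0.38 ± 0.10 (adjusted p = 0.0891). Rab7b and Rab7a, which share a number but are separate genes, were 1.95 apart in log2 fold change, the widest gap among the 10 Rab numbers with more than 1 measured gene. In the late endosomal class as a whole 1 of 5 rose and none fell, beside 4.83% of all genes that rose and 4.06% that fell. A positive fold change was found in 4 of 5, beside 5929 of 12858 genes. The class median log2 fold change was 0.28, beside -0.04 over all genes tested.

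**Figure D1:**
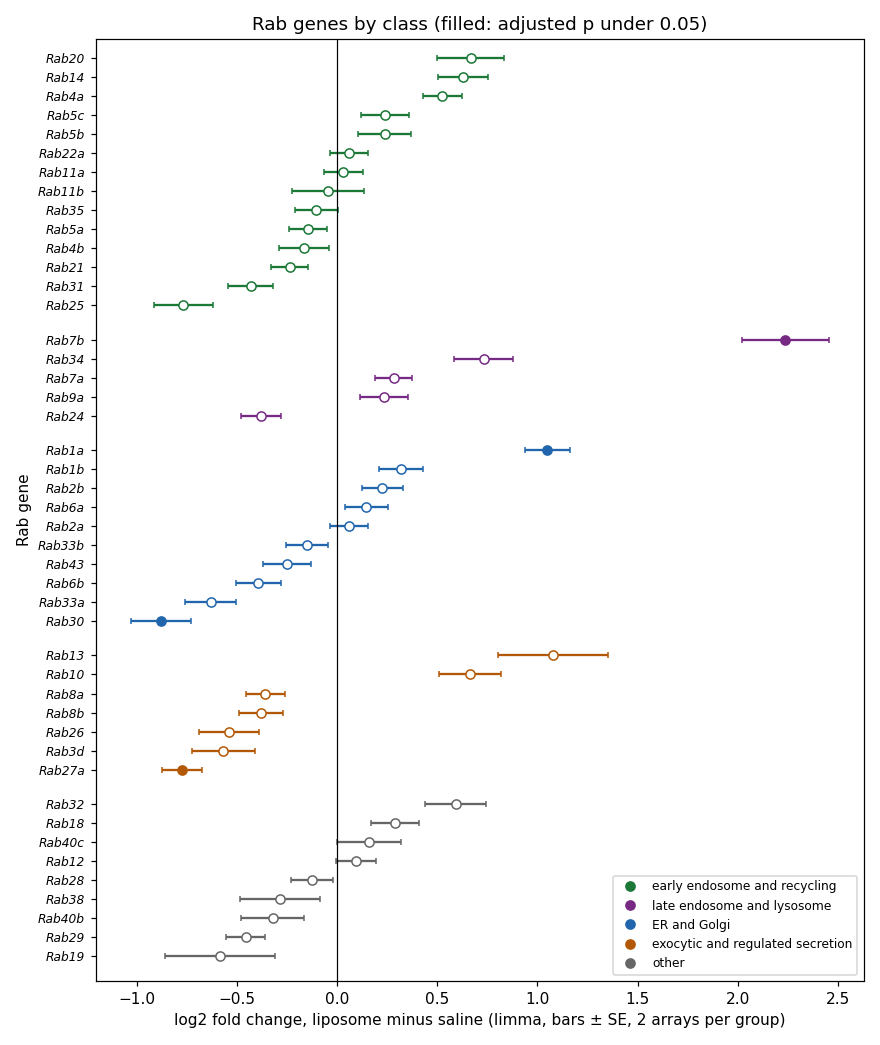
Log2 fold change, liposome minus saline, of the 45 Rab genes by class, with bars for the SE from limma (2 arrays per group) and filled points for an adjusted p under 0.05. Rab7b at 2.24 and Rab1a at 1.05 are filled to the right of 0, and Rab27a at -0.77 and Rab30 at -0.88 to the left.

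None of the 14 early endosomal and recycling Rab genes passed the limma test, beside 8.89% of all genes tested. Of the 14, 5 had an unadjusted limma p under 0.05, beside 4181 of 12858 genes. Their fold changes were balanced, 7 positive and 7 negative, with a median of -0.01 and a range of -0.77 to 0.67 on the log2 scale. Rab20, a Rab of phagosomes and macropinosomes, was at the upper end with 6228 and 6113 in liposome samples, against 4465 and 3386 in saline samples. Its log2 fold change was 0.67 ± 0.17 with an adjusted p of 0.0796, and the saline pair was much farther apart than the liposome pair. Rab14, which works between Golgi and early endosomes, had 2044 and 1884 with liposomes, against 1365 and 1178 with saline (0.63 ± 0.12, adjusted p = 0.0568). Rab4a, of the fast recycling route, had 1291 and 1262, against 859 and 915 with saline (0.53 ± 0.10, adjusted p = 0.0518). In each of these genes the groups did not overlap, as in 12 of the 14 of the class and 65.5% of all genes tested.

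At the other end of the class, Rab25, a relative of Rab11 best known from epithelia, had 115 and 109 in liposome samples, against 170 and 214 in saline samples. Its log2 fold change was -0.77 ± 0.15 with an adjusted p of 0.0547 (limma). Rab31, which carries cargo from the trans-Golgi network to endosomes, had 7210 and 7072 with liposomes, against 10233 and 9057 with saline (-0.43 ± 0.11, adjusted p = 0.0841). Both were lower on every liposome array than on every saline array, a separation found in either direction for 65.5% of all genes tested. Rab21, which moves integrins, had 4975 and 4812, against 5806 and 5722 with saline (-0.24 ± 0.09, adjusted p = 0.174).

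The 3 Rab5 genes, which drive fusion of early endosomes, stood close to their saline levels and did not share a direction. Rab5a had 1111 and 1145 in liposome samples, against 1274 and 1219 in saline samples (log2 fold change -0.14 ± 0.10, limma adjusted p = 0.357). Rab5b had 2730 and 2855, against 2604 and 2153 with saline (0.24 ± 0.13, adjusted p = 0.289). Rab5c had 3081 and 3120, against 2833 and 2430 with saline (0.24 ± 0.12, adjusted p = 0.243). The 95% intervals from limma were -0.40 to 0.12 for Rab5a, -0.12 to 0.60 for Rab5b and -0.08 to 0.57 for Rab5c on the log2 scale, so a 2-fold change lay outside each. Rab11a, of the recycling endosome, had 809 and 844 with liposomes, against 827 and 791 with saline, and its groups overlapped (0.03 ± 0.10, adjusted p = 0.846). Rab11b also overlapped, with 885 and 842 against 1041 and 763 with saline, and its log2 fold change of -0.05 became 0.04 under median scaling and 0.18 without saline 1. Rab22a (0.06 ± 0.10), Rab35 (-0.10 ± 0.11) and Rab4b (-0.17 ± 0.13) also had intervals that include 0. Rab4a and Rab4b were 0.69 apart in log2 fold change, on opposite sides of 0.

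Of the 10 Rab genes of the endoplasmic reticulum and Golgi, 1 rose and 1 fell, beside 4.83% and 4.06% of all genes tested. The class median was -0.05 on the log2 scale. Rab1a, listed on the array as Rab1, governs transport from the endoplasmic reticulum to the Golgi. It had 18073 and 15948 in liposome samples, against 8338 and 8080 in saline samples. Both liposome values lay far above both saline values, and the saline pair was tight. Means were 17011 ± 1503 with liposomes and 8209 ± 182 with saline (SD, n = 2 each), and the gene rose by 1.05 ± 0.11 on the log2 scale, 2.07-fold, with a limma adjusted p of 0.0216. The probe lies at chr14:101027696-101027755 on rn4, plus strand. The call was lost when any 1 array was left out, while the log2 fold change stayed between 0.96 and 1.14. Such fits have 1 array in a group and fewer degrees of freedom for every gene.

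Rab1b, the near twin of Rab1a in function, did not pass. It had 15602 and 14327 with liposomes, against 11505 and 12491 with saline, and a log2 fold change of 0.32 ± 0.11 (limma adjusted p = 0.136). The array held 4 probes for it, with log2 fold changes of 0.27 to 0.33. The array files place all 4 on chromosome X of rn4, whereas RefSeq has Rab1b on chromosome 1 of GRCr8, so these probes may read a near-identical copy and the value is uncertain. Rab1a and Rab1b were 0.73 apart.

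Rab30, a Golgi Rab, was the member with the lowest log2 fold change. It had 127 and 100 in liposome samples, against 201 and 213 in saline samples, dim spots on all 4 arrays that were nevertheless well above background. The groups did not overlap. Means were 113 ± 18.8 with liposomes and 207 ± 8.08 with saline (SD, n = 2 each), and the gene fell by 0.88 ± 0.15 on the log2 scale, 1.84-fold lower, with a limma adjusted p of 0.0458. This call was the closest to the threshold. It was lost under quantile normalization (-0.82, limma adjusted p = 0.0550), under median scaling (-0.80, adjusted p = 0.0554) and with every probe fitted on its own (adjusted p = 0.0507). The Rab30 call was also lost without any 1 array, in fits with 1 array in a group and fewer degrees of freedom for every gene. Its probe lies at chr1:149669452-149669511 on rn4, plus strand.

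Rab33a, another Golgi Rab, had 80.4 and 94.2 in liposome samples, against 130 and 140 in saline samples (log2 fold change -0.63 ± 0.13, limma adjusted p = 0.0579). Its relative Rab33b, which also recruits autophagy proteins, had 624 and 649, against 673 and 741 with saline (-0.15 ± 0.11, adjusted p = 0.378). Rab6b, the isoform best known from neurons, had 436 and 443 with liposomes, against 613 and 542 with saline (-0.39 ± 0.11, adjusted p = 0.0992). Rab6a, which serves retrograde transport to the endoplasmic reticulum, was on the other side of 0 with 397 and 431, against 361 and 388 with saline (0.15 ± 0.11, adjusted p = 0.397). Rab2a and Rab2b, of the intermediate compartment between endoplasmic reticulum and Golgi, had log2 fold changes of 0.06 ± 0.09 and 0.23 ± 0.10, and Rab43 had -0.25 ± 0.12. None of these passed the test.

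**Figure D2:**
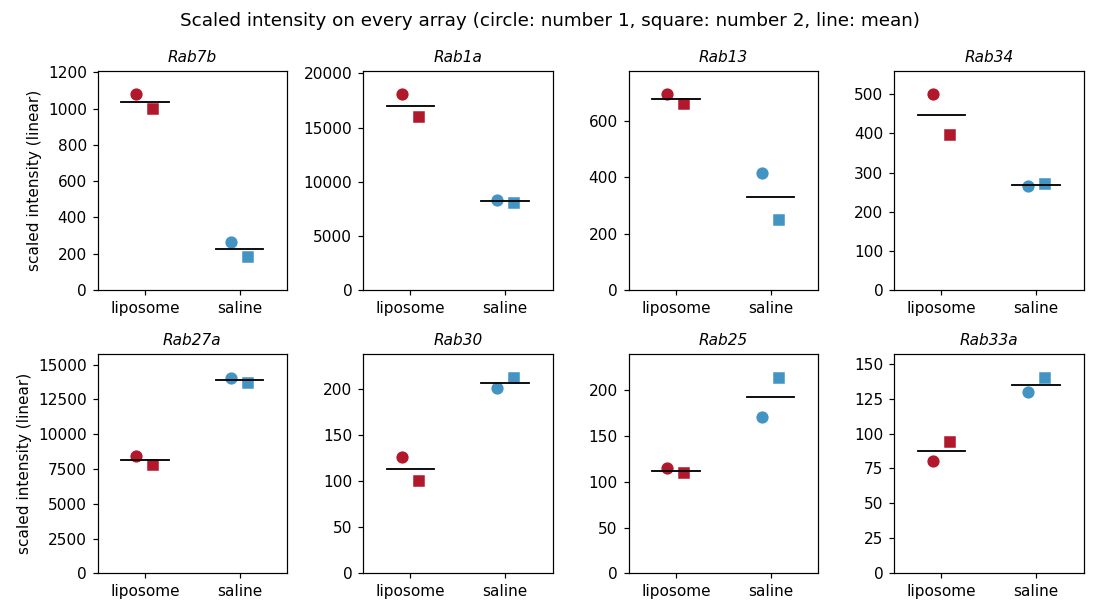
Scaled intensity (linear, axis from 0) of 8 Rab genes on every array, liposome left of saline, with circles for arrays numbered 1, squares for arrays numbered 2 and lines for means. In the upper panels (Rab7b, Rab1a, Rab13, Rab34) both liposome values lie above both saline values, and in the lower panels (Rab27a, Rab30, Rab25, Rab33a) both lie below.

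Among the 7 Rab genes of exocytosis and regulated secretion, Rab27a fell and none rose. Over all genes tested 4.06% fell and 4.83% rose. The class median was -0.38 on the log2 scale. Rab27a docks lysosome-related granules at the plasma membrane, among them the lytic granules of killer cells and granules of neutrophils. It had 8446 and 7824 in liposome samples, against 14078 and 13694 in saline samples. The groups were far apart beside the small gap within each pair. Means were 8135 ± 439.7 with liposomes and 13886 ± 271 with saline (SD, n = 2 each), and the gene fell by 0.77 ± 0.10 on the log2 scale, 1.71-fold lower, with a limma adjusted p of 0.0304. The call was lost without any 1 array, in fits with 1 array in a group and fewer degrees of freedom for every gene. Over the alternatives the log2 fold change of Rab27a was -0.83 to -0.69. Its probe lies at chr8:77861002-77861061 on rn4, plus strand.

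Marker lists of other cells that carry granules were measured in the same samples. Of the 11 measured neutrophil markers 7 fell and none rose, beside 4.06% of all genes that fell. Their median log2 fold change was -0.78. Their summed intensity, mostly of S100a8 and S100a9, was 148182 and 160661 in liposome samples, against 249176 and 275862 in saline samples. Ltf and Mpo were not above background. Of the 7 monocyte markers 4 fell and none rose, with a median log2 fold change of -0.99. Cd14 and Itgam, which did not pass, had log2 fold changes of 0.55 and 0.46. The monocyte sums, with Nr4a1 as the largest part, were 61966 and 74650 against 116456 and 106755 with saline. The 10 natural killer markers had sums of 12192 and 36639 with liposomes, against 30041 and 94060 with saline, and none passed the test; Ncr3 was not above background. The natural killer sums overlapped between groups and were higher on array 2 than on array 1 of each group. Between arrays of the same number, the sum was lower with liposomes. The mean natural killer sum with liposomes was 0.393 of that with saline, and the list's median log2 fold change was -1.35. The part of these cells in the Rab27a result was not tested.

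Rab13, known from tight junctions and transport to the plasma membrane, had the second highest log2 fold change of all Rab genes but did not pass. It had 695 and 658 in liposome samples, against 416 and 247 in saline samples, with a log2 fold change of 1.08 ± 0.27 and a limma adjusted p of 0.0828. The saline pair was 0.75 apart on the log2 scale, the widest gap within the saline pair of any Rab gene, and the value depended on it: 1.45 without saline 1 (adjusted p = 0.0394) and 0.70 without saline 2. Rab10, which brings Toll-like receptor 4 to the surface of macrophages in mouse, had 7221 and 6617, against 4907 and 3877 with saline (0.66 ± 0.15, adjusted p = 0.0722). Both were higher on each liposome array than on each saline array. In the class the groups did not overlap for 7 of 7 genes, beside 65.5% of all genes tested.

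The other Rab genes of exocytosis and regulated secretion were lower on every liposome array, and none of these 4 passed the test. Rab3d, of secretory granules, had 1647 and 1698 in liposome samples, against 2812 and 2183 in saline samples (log2 fold change -0.57 ± 0.16, limma adjusted p = 0.0950). Rab26, also of secretory granules, had 106.5 and 94.6, against 131 and 162 with saline (-0.54 ± 0.15, adjusted p = 0.0966). Rab8a, which carries cargo from the trans-Golgi network to the surface, had 15054 and 15851, against 20041 and 19528 with saline (-0.36 ± 0.10, adjusted p = 0.0923). Its twin Rab8b had 2008 and 2175, against 2591 and 2848 with saline (-0.38 ± 0.11, adjusted p = 0.105). The pair Rab8a and Rab8b were only 0.02 apart in log2 fold change, the smallest gap among Rab genes that share a number.

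The 9 Rab genes of lysosome-related organelles, lipid droplets, cilia or unsettled place held no call by limma, beside 8.89% of all genes tested. Their median log2 fold change was -0.12. Of the 9, 2 had an unadjusted limma p under 0.05, beside 4181 of 12858 genes. Rab32, which works on melanosomes and other lysosome-related organelles, had 2238 and 2274 in liposome samples, against 1693 and 1324 in saline samples (log2 fold change 0.59 ± 0.15, adjusted p = 0.0848). Its relative Rab38 overlapped between groups, with 130 and 124 against 185 and 130 with saline (-0.29 ± 0.20). Rab18, of lipid droplets, had 7912 and 7461, against 6741 and 5861 with saline (0.29 ± 0.12, adjusted p = 0.182). Rab29, listed on the array as Rab7l1 and known as a partner of the kinase LRRK2, had 7602 and 7111 with liposomes, against 9987 and 10185 with saline (-0.46 ± 0.10, adjusted p = 0.0643). Rab19 had 316 and 418, against 438 and 678 with saline, pairs so spread that its SE was 0.27 (-0.58, adjusted p = 0.221). Rab12 (0.10), Rab40c (0.16), Rab28 (-0.12) and Rab40b (-0.32) completed the class. Rab40b was the one member whose probe was not well above background on all 4 arrays, having missed it on liposome 2.

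Set side by side, the endosomal Rab genes, early and late together, had a median log2 fold change of 0.06 with 11 of 19 positive, and the secretory ones, Golgi and exocytic together, had -0.25 with 7 of 17 positive, beside -0.04 over all genes tested. By the test, 1 of 19 endosomal genes rose and none fell, and 1 of 17 secretory genes rose and 2 fell. Over all genes tested 4.83% rose and 4.06% fell, and counts this small are no result about a class. The endosomal values ran from -0.77 to 2.24 and the secretory ones from -0.88 to 1.08, so the classes overlapped over most of their range. Median scaling gave 0.14 for the endosomal and -0.17 for the secretory median, with 0.05 over all genes tested. It moves every log2 fold change by the same amount, so it cannot alter the gap between the classes. With 1 array left out the endosomal median reached 0.18 (without saline 1), and the secretory median ran from -0.14 (without liposome 1) to -0.36 (without liposome 2), and neither class changed side of 0. The medians carry no test. Over all 45 Rab genes the median was -0.05, with 22 positive and 23 negative. The arrays of the groups did not overlap for 41 of the 45, 20 higher and 21 lower with liposomes, against 65.5% of all genes tested. At an unadjusted limma p under 0.05 there were 23 of 45 Rab genes and 4181 of 12858 genes. By class, 9 of 19 endosomal and 12 of 17 secretory Rab genes reached that level. Of the 41 Rab genes that did not pass, 34 had a 95% interval within 2-fold either way. The other 7, whose intervals reached beyond 2-fold, were Rab13, Rab34, Rab20, Rab10, Rab32, Rab19 and Rab25.

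The remaining 11 Rab genes on the array did not pass the filter on dim probes: Rab3a, Rab3b, Rab3c, Rab9b, Rab15, Rab17, Rab23, Rab27b, Rab36, Rab39a and Rab44. Just outside it lay Rab27b, the close relative of Rab27a, well above background on saline 2 alone, with processed intensities of 7.41 and 20.4 in liposome samples, against 45.2 and 84.0 in saline samples. Just inside lay Rab40b, with scaled intensities of 71.7 and 56.8 with liposomes, against 84.0 and 75.7 with saline.

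Repeat spots within an array gave the error between spots only, and not the technical error between arrays. For the 8 Rab probes printed in 10 spots per array, the coefficient of variation across the spots was 2.23% to 13.5%, with a median of 4.97%. Between the arrays of a pair, Rab genes differed by a median of 0.08 on the log2 scale with liposomes and 0.14 with saline. For 8 genes more than 1 probe passed, and in 7 of them all probes shared the sign of the fold change, with spans of 0.02 to 0.18. The exception was Rab22a, with -0.08 and 0.06. Probes that did not pass are outside this count. Rab6b, Rab28 and Rab33b each had such a probe, with processed intensities of 6.51 to 10.8, 10.6 to 25.7 and 42.9 to 48.4 across the arrays. Those of the probes used were 455 to 577, 6371 to 6951 and 633 to 719.

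**Figure D3:**
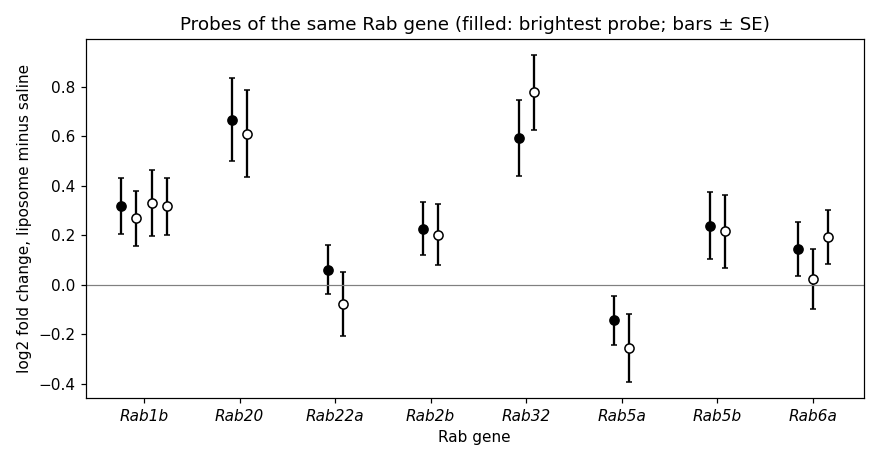
Log2 fold change, liposome minus saline, of every passing probe of the 8 Rab genes that had several, with bars for the SE and the brightest probe, used for the gene, filled. The probes of Rab1b lie between 0.27 and 0.33, while those of Rab22a fall on both sides of 0.

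The machinery that loads, switches and reads Rab proteins was followed in 5 lists. Of 25 measured GAPs, 3 rose and none fell, with a median log2 fold change of -0.11. Sgsm3, a GAP with a TBC domain, had 1172 and 1033 in liposome samples, against 512 and 540.4 in saline samples, and rose by 1.06 ± 0.11 (limma adjusted p = 0.0216). Tbc1d2b rose by 1.04 ± 0.18 (adjusted p = 0.0476), and Tbc1d7, better known as a subunit of the tuberous sclerosis complex, rose by 0.62 ± 0.11 (adjusted p = 0.0465). Of 23 measured exchange factors 1 rose and none fell, with a median of 0.02. It was Rab3il1, an exchange factor for Rab8 and Rab3a, which had 198 and 172 with liposomes, against 99.2 and 106 with saline (0.85 ± 0.12, adjusted p = 0.0338). Of the 7 genes of prenylation and GDP dissociation inhibition, Chm rose and none fell, with a median of 0.01. Chm, the escort protein that presents new Rab proteins for lipid attachment, had 443 and 497, against 234 and 221 with saline (1.04 ± 0.11, adjusted p = 0.0216).

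Of 30 measured endosomal effectors and tethers, 3 rose and 1 fell, and the median log2 fold change was 0.17, with 19 positive. Appl2, an effector of Rab5, had 128 and 126 in liposome samples, against 49.9 and 66.7 in saline samples (1.14 ± 0.17, limma adjusted p = 0.0376). Vps29, a subunit of the retromer coat, had 4413 and 4181, against 2496 and 2298 with saline (0.84 ± 0.10, adjusted p = 0.0278). Vps33a, of the complexes that tether endosomes and lysosomes, rose by 0.62 ± 0.10 (adjusted p = 0.0427). Rab11fip1, an effector of Rab11, had 290 and 365, against 670 and 589 with saline and fell by 0.95 ± 0.16 (adjusted p = 0.0448).

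Of 15 measured secretory effectors, 2 rose and none fell, with a median of 0.08. Optn, optineurin, which binds Rab8 and serves as an autophagy receptor, had 866 and 863 in liposome samples, against 217 and 232 in saline samples. All 4 values were tight around their group means, and the gene rose by 1.95 ± 0.10 on the log2 scale, 3.86-fold, with the lowest limma adjusted p of these lists (0.00769). Myo5a, the myosin that moves Rab27a-bearing organelles, had 4127 and 3729, against 2244 and 1706 with saline (2.01-fold higher, SE 0.17 on the log2 scale, adjusted p = 0.0455). Over the 5 lists the shares that passed, from 1 of 23 to 1 of 7, stand beside 8.89% of all genes.

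Without liposome 1 or without liposome 2 none of these 11 regulators and effectors kept its call, and no gene of the 12858 passed (the lowest adjusted p-values were 0.0558 and 0.0657, while 2177 and 2397 genes had an unadjusted p under 0.05). Without saline 1 the calls that held were Optn (adjusted p = 0.0308) and Myo5a (0.0490), and without saline 2 they were Optn (0.0337) and Appl2 (0.0416). Under quantile normalization Appl2 (limma adjusted p = 0.0642), Rab11fip1 (0.0526), Tbc1d2b (0.0563) and Tbc1d7 (0.0678) lost their calls. Tbc1d7 also lost its call under median scaling (0.0505) and normexp background correction (0.130), and with no filter on dim probes all 11 did.

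**Figure D4:**
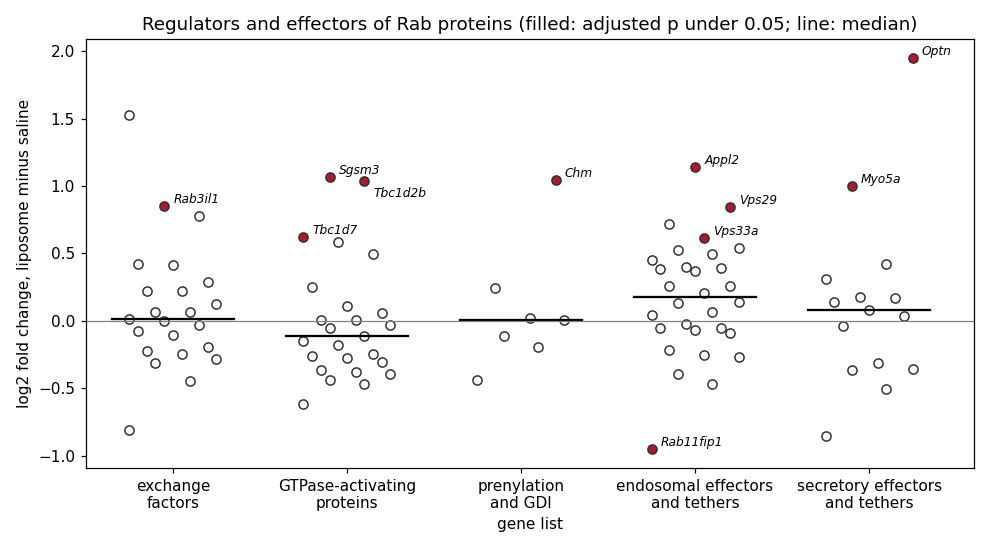
Log2 fold change, liposome minus saline, of the measured genes of 5 lists of Rab regulators and effectors (1 point per gene, lines for list medians, filled points for an adjusted p under 0.05). Optn at 1.95 stands highest among the filled points, and Rab11fip1 at -0.95 is the only filled point below 0.

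The other marker lists differed in direction and in how many of their genes passed the limma test. Over all genes tested 4.83% rose and 4.06% fell by that test. Macrophage markers had sums of 208939 and 216794 in liposome samples, against 214257 and 250405 in saline samples, with Marco not above background. Lyz2 and Cd68 made up most of these sums, and the list's median log2 fold change was -0.43. By the test 2 of 13 were higher, Mertk (log2 fold change 2.73) and Msr1 (2.42). Another 6 were lower: Cd5l (-2.13), C1qc (-2.09), C1qa (-1.73), C1qb (-1.71), Vcam1 (-1.54) and Cd163 (-0.96). Erythroid markers had sums of 34829 and 33519, against 90515 and 93487 with saline, with 6 of 9 lower by the test and Gata1 not above background. Dendritic markers had 4935 and 4471, against 10525 and 9598 with saline, with 4 of 6 lower by the test and Xcr1 and Zbtb46 not above background. The B and plasma cell sums were 22323 and 17109 with liposomes, against 30926 and 31551 with saline, and the T cell sums were 18217 and 32853, against 17497 and 39232 with saline. In both of these lists 0 genes passed the limma test. The T cell sums overlapped between groups and were higher on array 2 than on array 1 of each group, as were the natural killer sums. Median log2 fold changes were -0.77 for B and plasma cell, -0.13 for T cell, -1.33 for erythroid and -0.93 for dendritic markers. The 3 measured platelet markers had sums of 1469 and 1348, against 649 and 601 with saline, with 1 higher and 1 lower by the test and Gp1ba and Ppbp not above background. Most of that sum was Pf4 (1235 and 1124 with liposomes, against 251 and 298 with saline); Gp9 fell by 0.99 on the log2 scale, and the list's median log2 fold change was -0.09. The part of these differences in the Rab values was not tested.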

How the data were processed

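Labelled RNA of 4 samples was hybridised to 4 one-colour Agilent arrays with 60-base rat probes, 2 for liposome and 2 for saline. The deposited files give linear spot intensities. The software, per the submitters' processing notes, was Agilent Feature Extraction 10.7.3.1. Its processed intensity is corrected for background and spatial trends within an array, without scaling between arrays, per the file headers.

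Repeat spots of a probe were averaged without controls and outliers. The log2 values were then centred on the 75th percentile of their array. Genes were named by accession through RefSeq, else by the file. The brightest passing probe stood for a gene. The 12858 genes were fitted on the log2 scale with limma 3.58.1 (lmFit and eBayes) in R 4.3.3, with 2 residual and 2.26 prior degrees of freedom, and adjusted by Benjamini-Hochberg over all of them. An exact permutation test of 2 against 2 cannot go below 0.333 and was not used. The number of arrays limits the precision.

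The Rab genes, their classes and the regulator and marker lists were chosen with earlier results of these data known. A B-cell marker was left out of its list and is not reported here. Every passing Rab gene is accounted for. Values of every array are given for those past the threshold and for at least 2 per class with the largest change, and regulators are named when past the threshold. Alternatives were normexp background correction, quantile and median scaling, other filters on dim probes, other summaries of a gene's probes, each array left out and the title number as a block. The sample titles end in "exp1" or "exp2" in each group, and the labels do not spell out what this stands for. Probe positions are on rn4; exon and intron are not given.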

Additional observations from a re-analysis of the deposited data

How the results depend on the processing

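The 4 Rab calls and 1143 calls over all genes tested depended on how the arrays were handled. Normexp background correction gave 9 Rab calls and 1734 in all, and probes well above background on all 4 arrays gave 7 Rab calls. Median scaling gave 7 Rab calls, 6 higher and 1 lower, and a split of 852 higher and 442 lower over all genes, beside 621 and 522; the class medians moved to 0.14 for endosomal and -0.17 for secretory Rab genes, and that of all genes to 0.05. With no filter on dim probes limma made 0 Rab calls and 0 calls over 21971 genes (18 of 56 Rab genes and 3005 genes at an unadjusted p under 0.05). With 1 array left out, Rab calls ran from 0 (without either liposome array, 11 Rab genes at an unadjusted p under 0.05 each time) to 2 (without saline 1), calls over all genes from 0 to 499, and the secretory median from -0.36 (without liposome 2) to -0.14 (without liposome 1). The endosomal median ran from 0.061 (without liposome 1) to 0.18 (without saline 1). Median scaling moves every log2 fold change by the same amount. The cause of the other shifts was not tested. Signs turned for Rab11b (0.035 under median scaling; -0.27 to 0.18 over the left-out arrays), Rab22a (-0.0083 with the mean of its probes), Rab40c (-0.015 to 0.34 over the left-out arrays) and Rab11a (-0.0014 to 0.064), none of which passed the test in any setting. Quantile normalization (3 Rab calls), the mean of a gene's probes (4) and every probe fitted on its own (3) stayed within 1.5 times the count. Rab7b kept its sign throughout, with log2 fold changes of 1.88 to 2.52.

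With the title number as a replicate block, 10 Rab genes and 1816 genes in all were called; the 6 added were Rab10, Rab13, Rab14, Rab25, Rab33a and Rab34. Deviations of same-numbered arrays correlated at 0.355 across genes, but there are 2 pairs only and the labels do not spell out what "exp" and its number in the titles stand for, so whether the arrays are paired is not settled. With 2 arrays per group, a signal near background limits the dim Rab genes.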
